A study of Mus musculus with 10 samples.

Results

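C/EBP transcription factors were described in the livers of germ-free (GF) mice given gut microbiota-derived extracellular vesicles (MEV). The 4 genes, *Cebpa*, *Cebpb*, *Cebpd* and *Cebpg*, were chosen by name as members of this family, with earlier results of these data known. All 4 are expressed in liver and were found by Ensembl identifier among the 12148 genes of the count table. Wild-type C57BL/6 animals raised without microbes received either MEV in PBS (GF+MEV, n = 5) or PBS alone (GF+PBS, n = 5) by mouth, repeatedly over several weeks, and whole liver RNA was sequenced, 1 library per mouse. The vesicles had been purified from the gut content of other mice, and both groups lacked a microbiota of their own. The age and sex of the germ-free animals were not given in the sources used here. The experiment was run on a single occasion.

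C/EBP proteins are basic leucine zipper (bZIP) transcription factors that bind DNA as dimers with each other or with related factors. In hepatocytes, C/EBPα keeps the differentiated state and is needed for glucose and nitrogen metabolism. C/EBPβ and C/EBPδ are induced by cytokines, glucocorticoids and cAMP, and act on acute phase and gluconeogenic genes, while C/EBPγ lacks an activation domain and acts as a partner of the others. Because all of them recognize closely related DNA sites, the balance between the members is a usual way to describe their expression.

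Totals per library ran from 15746119 to 20523649 counts, with a median of 16937758. Levels are given as library-scaled counts (CPM) after TMM normalization, and groups were compared with edgeR's quasi-likelihood test, with p-values adjusted by Benjamini-Hochberg over all 12147 genes tested and a threshold of 0.05. Of these genes, 928 passed (7.64%), 500 of them upwards in GF+MEV livers (4.12%) and 428 downwards (3.52%). Scaling by total count alone gave 332 higher and 691 lower genes, and upper-quartile scaling 428 and 612. One GF+MEV library, replicate 2, had a TMM factor of 0.890 where the other 4 lay between 0.978 and 1.01. Pairs of GF+MEV libraries were also compared by a chi-square of counts scaled by library total, averaged over genes. It was 133.1 to 174.9 in pairs with replicate 2 and 8.143 to 21.3 in the other pairs. Among the GF+PBS livers, replicates 1 and 3, and replicates 4 and 5, were more alike than the other pairs. Their root mean square differences on the log2 scale were 0.529 and 0.496, against 0.680 to 0.850 in the other pairs. These were taken over the 300 genes that varied most among GF+MEV livers. Member fold changes, ratios and counts of called genes per list were therefore also computed without GF+MEV replicate 2. They were computed as well with each alike GF+PBS pair summed, or averaged for the ratios. Shares, percentiles, correlations, marker sums and motif shares were not recomputed. Summed CPM of 9 hepatocyte markers ranged from 106539 to 125469 in GF+MEV livers and from 109177 to 125242 in GF+PBS livers, with *Alb* at the highest level.

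*Cebpb* and *Cebpd* were about 4-fold higher in GF+MEV livers, *Cebpa* was lower, at 81.8% of its control level, and *Cebpg* did not pass the test. Thus 3 of the 4 genes passed, 2 of them upwards and 1 downwards, beside 7.64% of all tested genes. The same 3 genes did not overlap between the groups, which held for 7.39% of all tested genes. *Cebpb* ranked 11 and *Cebpd* 19 by p-value among the 12147 genes. As the members were chosen with earlier results known, these shares and ranks are descriptions.

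*Cebpb* (ENSMUSG00000056501), which encodes C/EBPβ, is a gene of a single exon on the forward strand of chromosome 2 of GRCm38, from 167688915 to 167690418. Promoters of *Cebpb* and *Cebpa* are shown because their transcripts moved in different directions. *Cebpd* had no entry among the promoters used, so its promoter was not searched. The windows run from 250 bases before to 50 bases after the RefSeq start on GRCm38.p6, and capitals mark the motifs found in them. *Cebpb* (chr2:167688665-167688964, forward strand) and *Cebpa* (chr7:35119043-35119342, forward strand) read as follows.
Cebpb promoter: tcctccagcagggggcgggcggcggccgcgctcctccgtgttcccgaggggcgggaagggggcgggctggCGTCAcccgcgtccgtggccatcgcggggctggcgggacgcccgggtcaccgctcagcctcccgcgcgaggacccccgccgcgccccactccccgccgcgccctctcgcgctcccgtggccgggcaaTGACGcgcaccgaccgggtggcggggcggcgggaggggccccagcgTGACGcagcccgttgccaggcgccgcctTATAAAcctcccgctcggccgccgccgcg
Cebpa promoter: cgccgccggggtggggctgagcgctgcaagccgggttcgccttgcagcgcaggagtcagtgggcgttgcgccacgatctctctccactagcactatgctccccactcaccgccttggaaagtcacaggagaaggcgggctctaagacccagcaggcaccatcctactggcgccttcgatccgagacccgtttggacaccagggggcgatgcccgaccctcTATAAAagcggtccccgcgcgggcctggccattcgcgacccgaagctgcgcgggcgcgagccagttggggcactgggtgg
The *Cebpb* window held 3 matches to the cAMP response element core TGACG, at -180 on the other strand (written CGTCA), -53 and -7 from the start, and the TATA box letters TATAAA at 22, where the start is counted as 1. In the *Cebpa* window, of the motifs searched, only TATAAA was found, at -30. Among 32851 mouse promoters of this length, 20.81% held TGACG on either strand and 13.62% held TATAAA. Neither window, nor that of *Cebpg* (chr7:35056517-35056816, reverse strand), held the letters TTGCNNAA of a C/EBP site (10.8% of promoters), TGACGTCA of a full cAMP response element (1.79%), TGATGNAA of a C/EBP-ATF site (3.969%), TTCNNNGAA of a STAT site (8.298%) or AGAACA of a glucocorticoid receptor element (18.97%). TGACG is contained in TGACGTCA, and all motifs were searched on both strands. GC content was 80.7% in the *Cebpb* window, 67.3% in that of *Cebpa* and 71.7% in that of *Cebpg*, against a median of 52.7% over all promoters.

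In GF+MEV livers, *Cebpb* was at 259.7, 301, 317, 330.4 and 275 CPM in replicates 1 to 5. The GF+PBS livers held 72.4, 67.7, 54.9, 92.7 and 81.8 CPM. The groups did not overlap, and the lowest treated liver lay far above the highest control. Mean expression was 297 ± 29.2 CPM (SD, n = 5) against 73.9 ± 14.3 CPM (SD, n = 5), or 4.01-fold, with a log2 fold change of 2.0 (standard error 0.14, adjusted p = 8.5e-08, edgeR). With the 2 alike pairs of GF+PBS livers summed the log2 fold change was 2.03, and without GF+MEV replicate 2 it was 2.0. *Tmem189* on the opposite strand shares 312 bases, or 20.7%, of the *Cebpb* exon. The strand setting of the counting was not given, so how reads from the shared stretch were counted is not known. *Tmem189* itself was at 12.3 ± 1.68 and 11.2 ± 2.08 CPM (SD, n = 5 each) and did not pass the test (log2 fold change 0.13, adjusted p = 0.64, edgeR).

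*Cebpd* (ENSMUSG00000071637) encodes C/EBPδ, the other cytokine-induced member, and lies on the forward strand of chromosome 16 from 15887286 to 15891031. It was expressed at a much lower level, with 368 to 462 counts per GF+MEV library and 72 to 146 per GF+PBS library. GF+MEV replicates 1 to 5 had 28.2, 28.5, 21.5, 23.4 and 23.6 CPM. In GF+PBS livers the values were 4.0, 5.77, 4.76, 7.38 and 5.76 CPM. These groups were separate as well, and GF+PBS replicate 4 was the highest control liver for both *Cebpb* and *Cebpd*. The means of 25.0 ± 3.12 and 5.53 ± 1.27 CPM (SD, n = 5 each) were 4.52-fold apart, with a log2 fold change of 2.17 (standard error 0.17, adjusted p = 1.8e-07, edgeR). *Spidr* on the opposite strand shares 562 bases of the *Cebpd* exon and was at 2.72 ± 0.878 and 2.98 ± 0.293 CPM (SD, n = 5 each) with a log2 fold change of -0.13 (adjusted p = 0.78, edgeR).

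*Cebpa* (ENSMUSG00000034957), encoding the C/EBPα of differentiated hepatocytes, is a gene of 1 exon on the forward strand of chromosome 7 from 35119293 to 35121928. It was at 511, 430.0, 528, 449 and 489 CPM in GF+MEV replicates 1 to 5, and at 606, 571, 555, 621 and 590.2 CPM in those of GF+PBS. The highest GF+MEV liver was just below the lowest GF+PBS liver, so the groups did not overlap but lay close. The mean of 481 ± 41.3 CPM (SD, n = 5) in GF+MEV livers was 81.8% of the 589 ± 26.1 CPM (SD, n = 5) in GF+PBS livers, with a log2 fold change of -0.29 (standard error 0.063, adjusted p = 0.014, edgeR). This call did not hold when the alike GF+PBS livers were summed (log2 fold change -0.28, adjusted p = 0.072, edgeR). The lowest value belonged to replicate 2, the library with the low TMM factor, and without it the log2 fold change was -0.25 (adjusted p = 0.034, edgeR). In whole liver RNA, fewer cells of a type and less RNA per cell cannot be told apart from a single gene. Of 9 hepatocyte markers 1 was higher and none lower, beside 4.12% and 3.52% of all tested genes (median log2 fold change 0.02, lowest -0.16). The summed CPM of these markers overlapped between the groups. The antisense gene *Gm45091* shares 51 bases, 1.93%, of the *Cebpa* exon and was at 2.32 and 2.47 CPM.

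*Cebpg* (ENSMUSG00000056216), which encodes the dimer partner C/EBPγ, lies on the reverse strand of chromosome 7 from 35046422 to 35056573 and has 5621 bases of exon in 3 blocks. Its expression was 30.8, 31.3, 28.2, 35.6 and 34.6 CPM in GF+MEV replicates 1 to 5 and 36.1, 32.4, 34.6, 33.5 and 34.9 CPM in those of GF+PBS. The groups overlapped, and 4 of the 5 GF+PBS livers lay within the range of the GF+MEV livers. The means were 32.1 ± 2.99 and 34.3 ± 1.40 CPM (SD, n = 5 each), with a log2 fold change of -0.10 and a 95% interval from -0.25 to 0.06 (adjusted p = 0.49, edgeR).

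**Figure D1:**
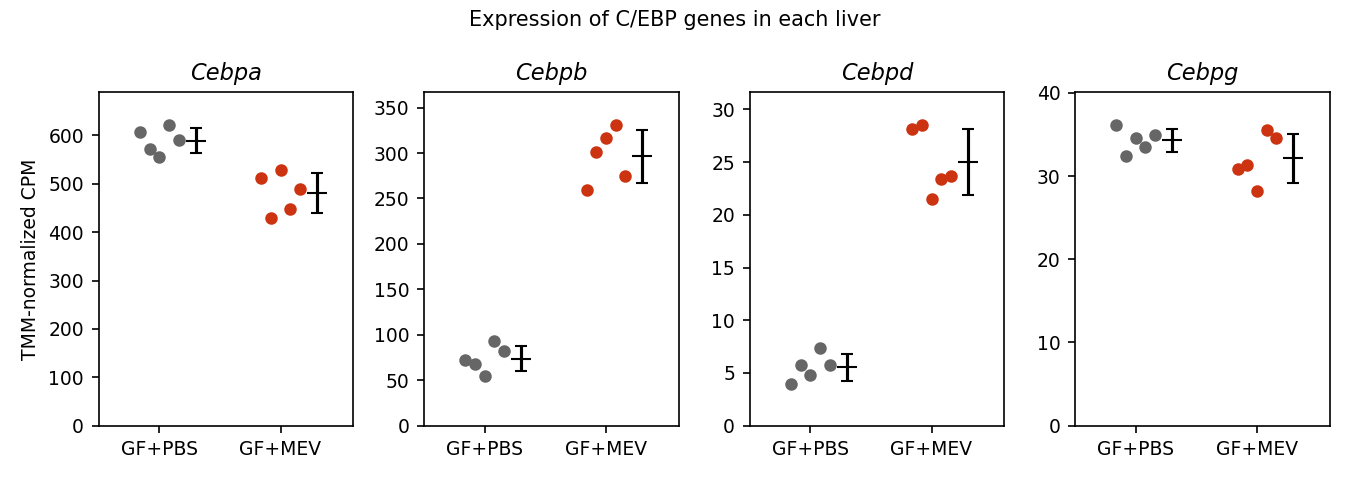
TMM-normalized CPM (linear axes from 0, a separate scale for each gene) of the 4 C/EBP genes, with 1 point per liver in replicate order from left to right and bars for the mean ± SD of 5 livers. For *Cebpb* the GF+PBS points lie between 54.9 and 92.7 CPM and the GF+MEV points between 259.7 and 330.4 CPM, *Cebpd* shows the same separation, *Cebpa* is lower in GF+MEV livers by a small margin, and the *Cebpg* points overlap.

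To set members side by side, counts were divided by the exonic length of each gene, taken as the union of its annotated exons. On this scale of CPM per kb, the order in GF+PBS livers was *Cebpa* (210.7 to 235), *Cebpb* (36.5 to 61.6), *Cebpg* (5.77 to 6.42) and *Cebpd* (1.07 to 1.97), and no neighbours in this order overlapped. In GF+MEV livers *Cebpb* (173 to 219.7 CPM per kb) and *Cebpa* (163 to 200.3) overlapped, as did *Cebpd* (5.74 to 7.61) and *Cebpg* (5.02 to 6.33). The overlap of *Cebpa* and *Cebpb* rests on their exonic lengths of 2636 and 1504 bases. In CPM, not divided by length, *Cebpa* lay above *Cebpb* in GF+MEV livers, at 430.0 to 528 against 259.7 to 330.4. GF+MEV means of *Cebpd* and *Cebpg* were 25.0 and 32.1 CPM, but 6.69 and 5.71 CPM per kb. Among all tested genes, the level per kb of *Cebpb* moved from the 92.67 percentile in GF+PBS livers to the 97.92 percentile in GF+MEV livers, and that of *Cebpd* from 29.44 to 65.86. *Cebpa* was at the 98.22 and the 97.73 percentile.

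Summed over the 4 members, the level was 392 ± 19.5 CPM per kb in GF+MEV livers and 280 ± 19.0 in GF+PBS livers (SD, n = 5 each). *Cebpa* made up 79.9 ± 2.17% of this sum in GF+PBS livers and 46.6 ± 3.70% in GF+MEV livers, while the share of *Cebpb* was 17.4 ± 2.27% and 50.2 ± 3.71% (SD, n = 5 each). Per kb of exon, the major part of this sum thus came from *Cebpa* in every GF+PBS liver, and from *Cebpa* and *Cebpb* at similar levels in GF+MEV livers. These shares depend on the exonic lengths used. *Cebpd* held 0.526% in GF+PBS and 1.71% in GF+MEV livers, and *Cebpg* 2.19% and 1.46%, a small part of the sum in both groups. *Cebpe*, a family member that is not among the 4, was left out of the sum. It was at 8.92 ± 1.03 CPM per kb in GF+MEV and 12.2 ± 1.02 in GF+PBS livers (SD, n = 5 each). These means were above those of *Cebpg* and *Cebpd* in both groups.

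**Figure D2:**
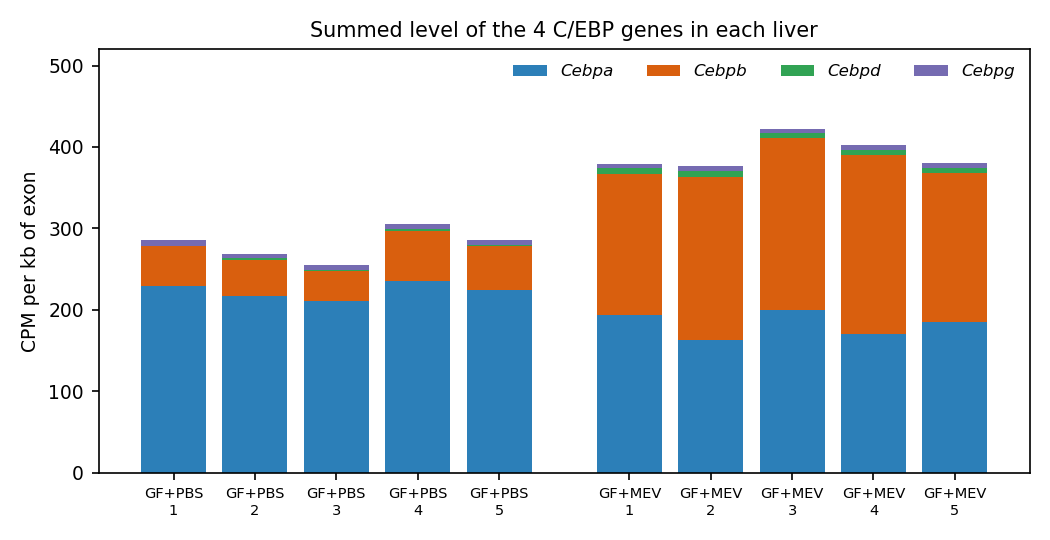
Stacked bars of the level of *Cebpa*, *Cebpb*, *Cebpd* and *Cebpg* in each of the 10 livers, in CPM per kb of exon on a linear axis from 0. The *Cebpb* segment is larger in each GF+MEV liver than in each GF+PBS liver, the *Cebpa* segment is slightly smaller, and the whole bar is higher, with a mean of 392 against 280 CPM per kb.

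The ratio between members within a liver does not depend on the scaling between libraries. The ratio of *Cebpb* to *Cebpa* per kb was 0.890, 1.23, 1.05, 1.29 and 0.985 in GF+MEV replicates 1 to 5. In GF+PBS livers it was 0.209, 0.208, 0.173, 0.262 and 0.243. All GF+PBS livers thus had several times more *Cebpa* than *Cebpb* per kb, whereas 3 of the 5 GF+MEV livers had more *Cebpb* than *Cebpa* per kb. The count of 3 rests on full exonic lengths, while 20.7% of the *Cebpb* exon is shared with *Tmem189*. How reads from that stretch were counted is not known. The mean log2 ratio was 2.32 higher in GF+MEV livers (standard error 0.14, n = 5 each), or 4.98-fold (exact two-sided permutation test, p = 0.0079, adjusted over 4 ratios 0.016). This p is the smallest that 5 mice against 5 can give.

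For *Cebpd* to *Cebpa*, the GF+MEV livers ranged from 0.0286 to 0.0466 per kb and the GF+PBS livers from 0.00464 to 0.00837. The ratio did not overlap between the groups, and the difference in mean log2 ratio was 2.49 (standard error 0.18, n = 5 each), or 5.63-fold (exact two-sided permutation test, p = 0.0079, adjusted 0.016). The ratio of *Cebpg* to *Cebpa* ranged from 0.0251 to 0.0372 and from 0.0253 to 0.0292, and overlapped. Its log2 difference was 0.20, with a 95% interval from -0.05 to 0.44 (exact two-sided permutation test, p = 0.11, adjusted 0.15, n = 5 each). Leaving out GF+MEV replicate 3, which had the lowest *Cebpg* and the highest *Cebpa* of its group, gave a log2 difference of 0.27 (exact permutation test, p = 0.032 before adjustment, n = 4 against 5). Finally, the ratio of *Cebpb* to *Cebpd* was 30.0 ± 5.85 in GF+MEV livers and 33.9 ± 6.75 in GF+PBS livers (SD, n = 5 each). This difference of -0.18 on the log2 scale had a 95% interval from -0.58 to 0.22 and did not pass (exact two-sided permutation test, p = 0.34, adjusted 0.34, n = 5 each).

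**Figure D3:**
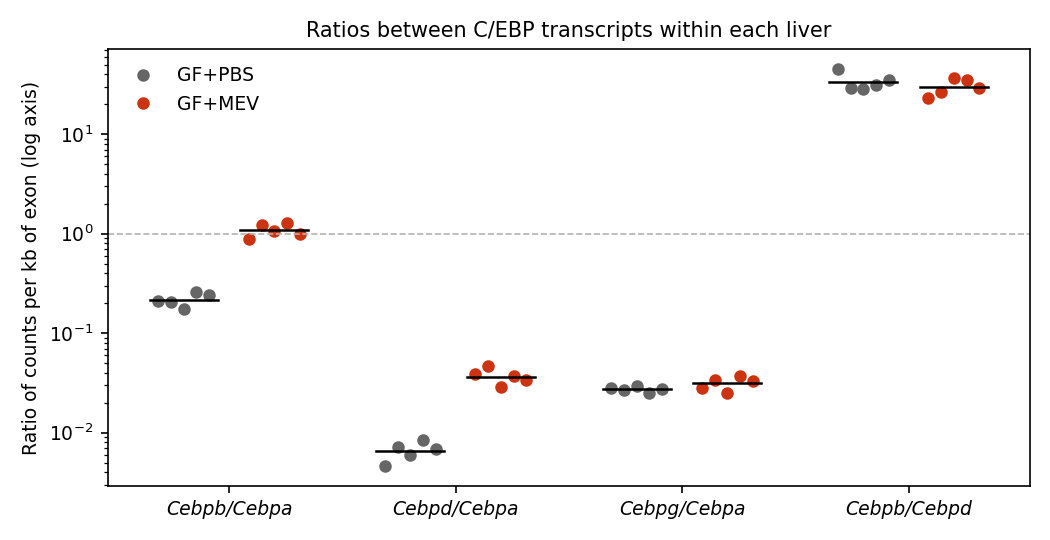
Ratio of counts per kb of exon between pairs of C/EBP genes within each liver, on a log axis, with 1 point per liver in replicate order and a line at the geometric mean of 5 livers. The dashed line marks equal levels, and the GF+MEV points of *Cebpb/Cebpa* lie around it, between 0.890 and 1.29, while the GF+PBS points lie between 0.173 and 0.262.

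Across the 10 livers *Cebpb* and *Cebpd* moved together (Pearson r = 0.97), and each was inversely related to *Cebpa* (r = -0.82 and -0.84). With the group means subtracted, r was 0.38 between *Cebpb* and *Cebpd*, 0.22 between *Cebpb* and *Cebpa* and -0.05 between *Cebpd* and *Cebpa*. These are descriptions over 10 livers that share their normalization, and the values over all livers include the difference between groups. Among 11834 genes averaging 1 CPM or more, the 2 most like *Cebpb* over the 10 livers were *Got1* (r = 0.991), an aspartate aminotransferase, and the kinase gene *Pim3* (0.988). For *Cebpd* they were *Tat* (0.992), which encodes tyrosine aminotransferase, *Angptl4* (0.992) and *Pim3* (0.991). *Nat8f1* (0.976), the B cell receptor gene *Cd79a* (0.973) and *Dact2* (0.956) were most like *Cebpa*, and *Mrpl36* (0.949), *Gm19522* (0.945) and the autophagy gene *Atg12* (0.914) most like *Cebpg*. After the group means were subtracted, the leading genes were *Zfp628* (0.924), *Zfp949* (0.917) and *Pla1a* (0.903) for *Cebpb*, and *Trp53bp2* (0.955), *Acot13* (0.932) and *Slc27a2* (0.926) for *Cebpd*. For *Cebpa* they were *Egln2* (0.965), *Gm13456* (0.962) and *Ecm1* (0.937), and for *Cebpg* *Gm19522* (0.951), *Mrpl36* (0.946) and *Msl3* (0.932). All of these were picked as the highest of 11834 correlations over 10 livers, which favours large r, and none was tested.

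Among 10 relatives and bZIP partners, 8 were tested, of which 1 was higher, 2 were lower and 5 did not pass (4.12% and 3.52% of all tested genes were higher and lower), with a median log2 fold change of -0.22 against -0.0037 over all tested genes. *Cebpe*, a family member known for granulocyte maturation, was at 10.8, 10.1, 10.5, 13.3 and 10.6 CPM in GF+MEV replicates 1 to 5 and at 16.3, 14.9, 13.3, 16.4 and 14.7 CPM in those of GF+PBS. The highest GF+MEV and the lowest GF+PBS liver nearly met at 13.3 CPM, without overlap, and the log2 fold change was -0.45 (standard error 0.09, adjusted p = 0.0092, edgeR). *Atf4*, a stress-induced factor that dimerizes with C/EBP proteins, fell from 98.9 ± 6.78 to 77.3 ± 4.13 CPM (SD, n = 5 each; log2 fold change -0.36, adjusted p = 0.0024, edgeR). *Atf3* rose by 0.98 on the log2 scale at a low level, from 0.882 to 1.77 CPM (adjusted p = 0.021, edgeR). *Ddit3*, which encodes the dominant-negative partner CHOP, was at 1.61 to 3.66 and 2.69 to 4.11 CPM and did not pass (log2 fold change -0.42, 95% interval -0.92 to 0.08, adjusted p = 0.25, edgeR). *Creb1*, the cAMP-responsive activator, differed by -0.08 (adjusted p = 0.72, edgeR).

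Of 18 receptors and signalling genes upstream of *Cebpb* and *Cebpd*, 2 were higher and 1 was lower, beside 4.12% and 3.52% of all tested genes, with a median log2 fold change of 0.0065. The cytokine receptor genes *Il1r1* and *Il6ra* rose, from 21.8 ± 2.30 to 62.8 ± 15.7 CPM and from 36.9 ± 5.81 to 79.0 ± 15.4 CPM (SD, n = 5 each; log2 fold changes 1.53 and 1.1, adjusted p = 7.9e-06 and 7.8e-05, edgeR). *Socs3*, a feedback inhibitor of IL-6 signalling, fell from 23.3 ± 5.53 to 10.3 ± 1.16 CPM (SD, n = 5 each; log2 fold change -1.18, adjusted p = 0.00028, edgeR). *Stat3*, which carries the IL-6 signal to the nucleus, was at 105.5 to 134.5 CPM in GF+MEV and 92.2 to 101 CPM in GF+PBS livers, without overlap, and just missed the threshold (log2 fold change 0.24, adjusted p = 0.053, edgeR). *Nr3c1*, the glucocorticoid receptor gene, overlapped between the groups (log2 fold change 0.05, adjusted p = 0.78, edgeR).

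Among 19 genes listed as regulators of C/EBP protein, 2 were higher and none was lower, beside 4.12% and 3.52% of all tested genes. Their median log2 fold change was 0.087. *Trib1*, an adaptor that brings C/EBPα to the ubiquitin ligase COP1, rose from 48.1 ± 8.13 to 69.4 ± 10.9 CPM (SD, n = 5 each; log2 fold change 0.53, adjusted p = 0.016, edgeR), and the coactivator gene *Crebbp* from 19.1 ± 2.80 to 25.4 ± 1.94 CPM (SD, n = 5 each; 0.41, adjusted p = 0.021, edgeR). *Cop1* itself was at 44.3 and 43.2 CPM (log2 fold change 0.04, adjusted p = 0.82, edgeR). Only 1 of the 19 genes passed without GF+PBS replicate 3, or with scaling by total count alone. Levels of C/EBP protein and its isoforms were not measured by these libraries.

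Of 18 hepatocyte metabolic and secretory genes known as C/EBP targets, 8 were higher and none was lower, with a median log2 fold change of 0.20. Of all tested genes, 4.12% were higher and 3.52% lower. With scaling by total count alone, 6 of the 18 genes were higher and 1 was lower. This list, like the others, was chosen with earlier results of these data known, so its counts are descriptions. The highest changes were in *Igfbp1*, an insulin-like growth factor binding protein (log2 fold change 3.72), the gluconeogenic genes *G6pc* (2.28) and *Pck1* (1.71), and *Tat* (2.10), with adjusted p-values from 7.6e-08 to 3.9e-05 (edgeR). *Sds*, *Cps1* and *Ass1*, all of amino acid and nitrogen metabolism and named after their values were seen, rose by 0.36 to 1.58 on the log2 scale. For *Cps1* the groups overlapped. *Alb*, the albumin gene and a classical C/EBPα target, was at 76247 ± 7005 and 78079 ± 4590 CPM (SD, n = 5 each; log2 fold change -0.03, adjusted p = 0.83, edgeR). Targets of one list thus included both genes with a manyfold difference and genes whose groups overlapped.

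Among 24 acute phase genes, 22 were tested, of which 5 were higher and 1 was lower, beside 4.12% and 3.52% of all tested genes, with a median log2 fold change of 0.11. *Cd14*, an endotoxin co-receptor, rose from 2.19 ± 0.687 to 7.70 ± 2.99 CPM (SD, n = 5 each; log2 fold change 1.81, adjusted p = 0.00036, edgeR). *Serpina3n* (0.45), haptoglobin *Hp* (0.31), the lipopolysaccharide binding protein gene *Lbp* (0.28) and *Itih3* (0.26, named after its value was seen) rose less. *Hamp*, which encodes the iron regulator hepcidin, fell by 0.44 on the log2 scale (adjusted p = 0.036, edgeR) although its groups overlapped. *Saa1*, a major inducible serum amyloid, was at 17 to 38.8 and 15.1 to 28.1 CPM (log2 fold change 0.28, adjusted p = 0.50, edgeR). Only 3 of the 22 genes passed when GF+MEV replicate 1 or 3, or GF+PBS replicate 1, 2, 3 or 4, was left out, or with the alike GF+PBS livers summed.

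**Figure D4:**
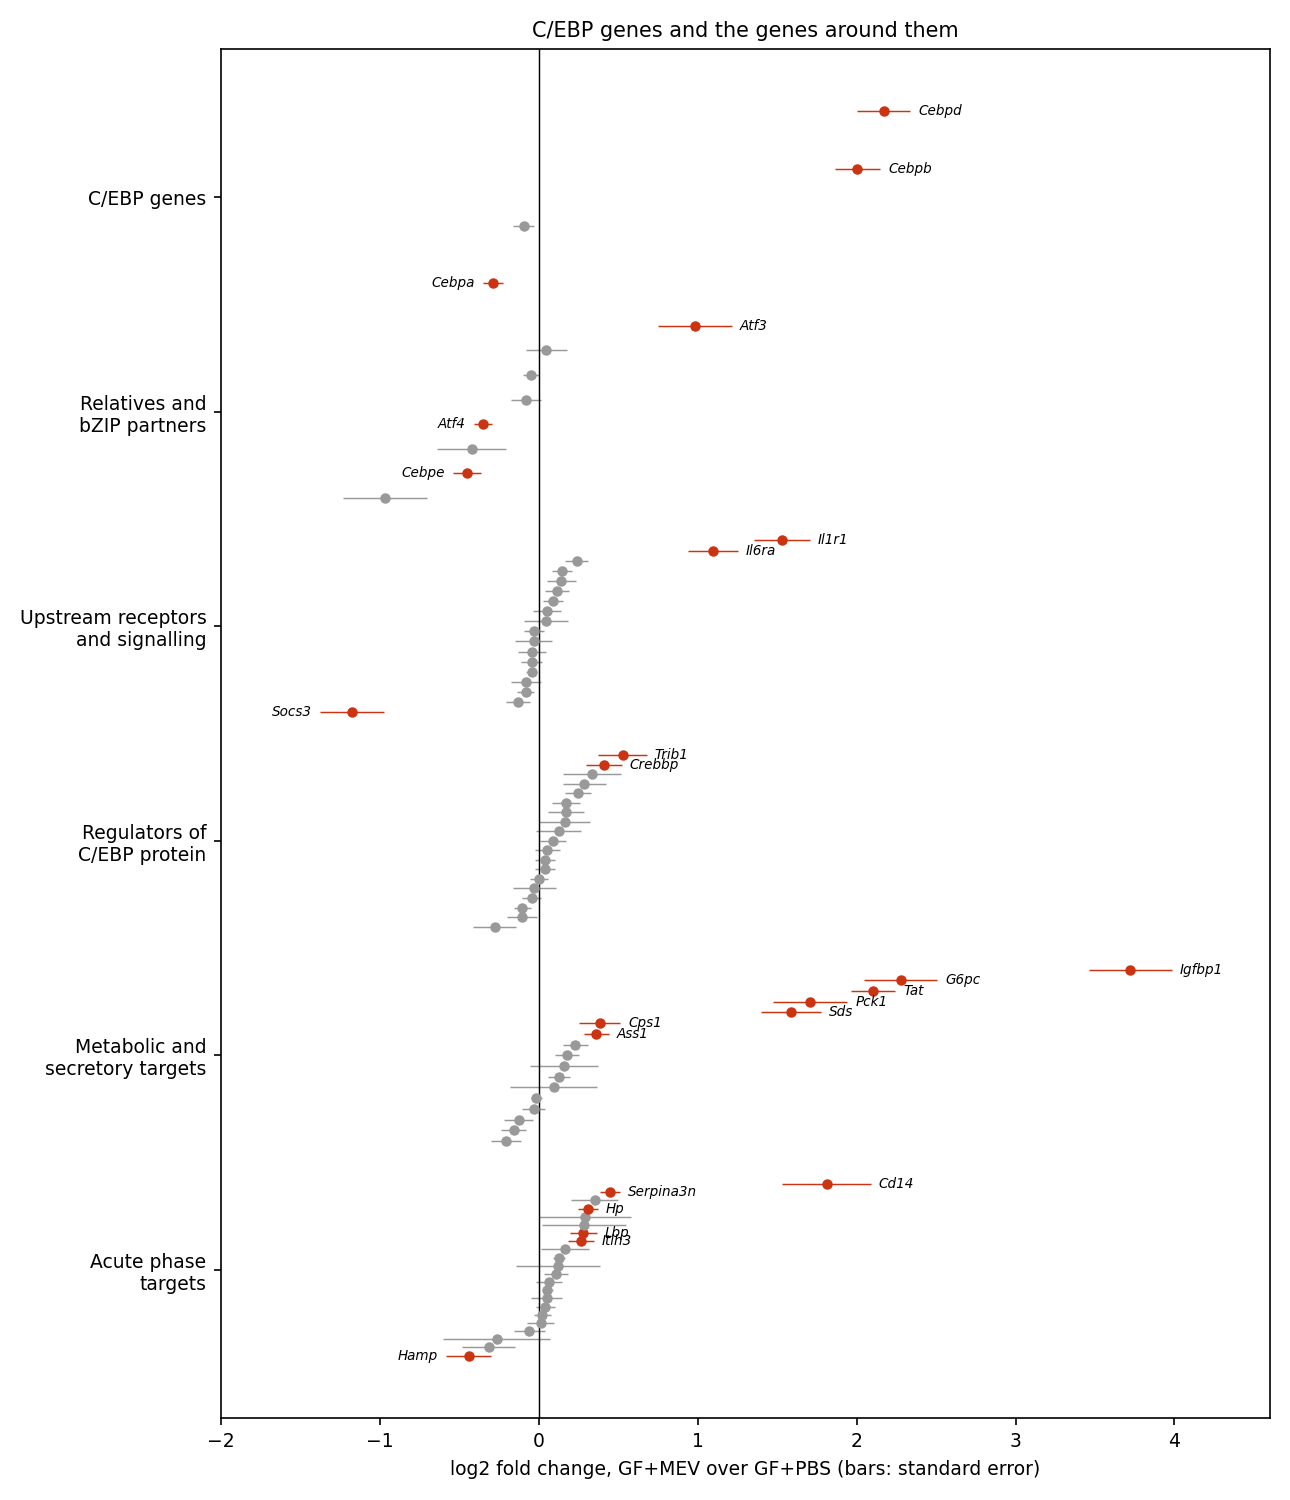
Log2 fold change of GF+MEV over GF+PBS livers, with its standard error, for the 4 C/EBP genes and the tested genes of 5 lists around them, sorted within each list, with 1 metabolic target not shown. Red points with names passed the edgeR test (adjusted p under 0.05) and grey points did not. *Cebpb* and *Cebpd* lie near 2, and of the genes in the lists *Igfbp1* lies furthest from 0, at 3.72.

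Of 997 tested genes whose promoter window held TTGCNNAA, 34 were higher (3.41%) and 52 lower (5.22%), against 342 (4.08%) and 266 (3.18%) of 8373 genes without it. These shares are a description of 9370 genes matched by symbol, and sites outside the 300 bases were not searched.

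Other cells of the liver also express C/EBP genes. Of 10 neutrophil markers, 9 were not among the genes analysed here, and the remaining gene *Csf3r* was at 0.964 to 2.25 CPM in GF+MEV and 1.44 to 2.35 CPM in GF+PBS livers. None of 8 Kupffer cell markers, led by *Cd5l*, passed the test, beside 7.64% of all tested genes. Their sums were 197 to 396 CPM in GF+MEV and 239 to 348 CPM in GF+PBS livers. The 4 B cell markers, led by *Cd79b*, were lower in sum, at 3.86 to 4.88 CPM in GF+MEV and 6.61 to 8.44 CPM in GF+PBS livers. Of these 4, 2 were called lower, beside 3.52% of all tested genes. Each was expressed at a low level, with group means between 0.460 and 2.39 CPM. These markers moved in the same direction as *Cebpa* and *Cebpe*, and their part in those results was not tested. Of 6 adipocyte markers 2 were tested, led by *Fabp4*. Of 6 sinusoidal endothelial markers, led by *Stab2*, 1 was higher and 1 lower, beside 4.12% and 3.52% of all tested genes. The endothelial sums of 98.9 to 159 CPM in GF+MEV and 123 to 161 CPM in GF+PBS livers overlapped.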

How the data were processed

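Liver RNA of 10 mice was analysed. The authors had aligned reads to GRCm38 with STAR 2.7.3a (per the labels), counted them per gene with HTSeq, and deposited raw counts for genes with enough reads over their samples. The annotation release and the strand setting were not given in the sources used here. Columns of 5 further libraries matched no described sample and were not used. Symbols, positions and exonic lengths came from GENCODE M21 and promoters from RefSeq. Genes with at least 20 counts over the 10 libraries (12147 of 12148) were tested with edgeR 4.0.16 in R 4.3.3 (TMM, quasi-likelihood, Benjamini-Hochberg). Standard errors were taken on the log2 CPM scale (prior count 2), and intervals of 95% used them with 8 residual degrees of freedom. Ratios were tested by exact permutation with scipy 1.17.1. Each model was tested on simulated data. With 200 genes changed by 1 on the log2 scale, edgeR recovered 182 with 14 false calls. DESeq2 recovered 184 with 27 false calls, and limma-voom 182 with 10. With no gene changed, each made 0 calls. DESeq2 1.42.0, limma-voom (limma 3.58.1), other scalings, filters, a replicate block, summed alike livers and each liver left out were alternatives.

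The members and lists were chosen with earlier results of these data known. Named genes were every member, the called genes with the largest changes in each list (up to 4 per direction), a few regulators, partners and targets whatever their result, the 3 genes most like each member, and the marker with the highest level of each list. A few genes that this rule or the lists include are not reported here by name. With 10 libraries of this depth, *Cebpd* had the lowest counts of the members. All p-values measure the spread between the livers of a single experiment.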

Additional observations from a re-analysis of the deposited data

Results flagged for a closer look

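In 4 of 44 groups of 5 livers, 1 liver lay further from the others than Dixon's 95% critical value allows (a gap of over 0.71 of the range), where chance gives about 1 in 20 groups, or 2.2 of 44. *Cebpe* was at 13.3 CPM in GF+MEV replicate 4 and at 10.1 to 10.8 CPM in the other GF+MEV livers. The summed level of the relatives and bZIP partners was 424 CPM in GF+MEV replicate 1 and 342 to 356 CPM in the others, and *Atf5* accounted for 294 CPM of it at its highest. Replicate 2 of GF+MEV had a TMM factor of 0.890, with the others from 0.978 to 1.01. The acute phase genes summed to 27202 CPM in GF+PBS replicate 5 and to 28595 to 29120 CPM in the other 4. None of the 4 members had such a liver in either group.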

How the results depend on the processing

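Over 19 other settings, the log2 fold change of *Cebpb* ranged from 1.92 to 2.10, that of *Cebpd* from 2.07 to 2.30, that of *Cebpa* from -0.36 to -0.25 and that of *Cebpg* from -0.17 to -0.05. *Cebpb*, *Cebpd* and *Cebpe* passed in all of them, *Cebpg* and *Ddit3* in none, and *Cebpa* in all but 1. With the alike GF+PBS livers summed, *Cebpa* was at -0.28 (adjusted p = 0.072, edgeR), 561 genes passed in all, and 3 acute phase genes passed; fewer samples were fitted there. Scaling by total count alone left 1 called regulator, and the cause was not tested. With 1 liver left out, 696 to 926 genes passed in all, 3 members in each fit, 3 to 4 relatives, 3 to 4 upstream genes, 1 to 3 regulators, 7 to 8 metabolic targets and 3 to 5 acute phase genes. The log2 ratio differences were then 2.23 to 2.38 for *Cebpb* to *Cebpa*, 2.37 to 2.59 for *Cebpd* to *Cebpa*, 0.13 to 0.27 for *Cebpg* to *Cebpa* and -0.26 to -0.07 for *Cebpb* to *Cebpd*. DESeq2 called 1201 genes, limma-voom 946, and total count scaling 1023.

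Deviations of same-numbered livers correlated at -0.15 to 0.14, and 1 of 5 GF+MEV livers matched its own number best. So few correlations cannot show whether the livers were paired by replicate number. A replicate block in edgeR gave 792 genes in all and log2 fold changes of -0.29 for *Cebpa* (adjusted p = 0.041), 2.02 for *Cebpb* and 2.18 for *Cebpd*. For the ratios, blocked sign-flip tests kept 2.32 for *Cebpb* to *Cebpa* and 2.49 for *Cebpd* to *Cebpa* at p = 0.0625, the smallest exact p that 5 pairs allow, so they cannot pass.

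Among the 4 members *Cebpd* had the lowest counts, with 72 in its lowest library, and *Ddit3* had 25.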
